A study of Mus musculus with 22 samples.

Results

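The Krueppel-like factors described here are 9 genes of mouse embryonic stem (ES) cells: Klf2, Klf3, Klf4, Klf5, Klf6, Klf7, Klf9, Klf10 and Klf13. They were chosen by name, and they are 9 of the 18193 genes and 33 of the 34945 probe sets that carry 1 gene symbol on the array. Each gene is represented by its brightest probe set over all 22 arrays, and the other probe sets are described beside it. All cells were of the Rex1GFPd2 line, which carries a destabilised green fluorescent protein reporter for Rex1, and grew in serum-free medium with N2 and B27 supplements. All groups had the MEK inhibitor PD0325901 (PD) and all were transfected with siRNA. Control cells in 2i also had the GSK3 inhibitor CHIR99021 (CHIR) and gave 7 arrays, 4 with siControl#1 and 3 with siControl#2. PD-only control cells lost CHIR from 24 hours after transfection and likewise gave 7 arrays, 4 with siControl#1 and 3 with siControl#2. PD-only cells with siRNA against YAP and TAZ gave 8 arrays, 4 with siYAP/TAZ#1 and 4 with siYAP/TAZ#2. All cells were harvested 72 hours after transfection. The labels call the samples biological replicates and name 1 reporter line, so the spread is that between cultures of this line.

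Krueppel-like factors bind GC-rich and CACCC sequences through zinc fingers at the carboxyl end of the protein, and their amino ends recruit activators or repressors. In ES cells Klf2, Klf4 and Klf5 act in the network of naive pluripotency. Klf4 is known as a target of LIF and STAT3 signalling, and Klf2 protein is known to be destabilised through the MEK and ERK kinases that PD blocks. Klf3 recruits the corepressor CtBP, while Klf9, Klf10 and Klf13 recruit Sin3A. The study asked, as far as its title and design go, how gene expression depends on GSK3 inhibition and on YAP and TAZ, coactivators of the Hippo pathway.

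The promoters of Klf6 and Klf7, the members with the largest differences, and of Klf2 and Klf4, which moved in opposite directions with YAP/TAZ siRNA, are shown because the first pair moved together and the other pair did not. Each sequence is the 250 bases upstream of the RefSeq start, read 5′ to 3′ on the gene's own strand, and capitals mark the GC box GGGCGG on either strand, a sequence of the kind that Krueppel-like and Sp factors bind.
Klf6 (GRCm38.p6, chr13:5861239-5861488, plus strand): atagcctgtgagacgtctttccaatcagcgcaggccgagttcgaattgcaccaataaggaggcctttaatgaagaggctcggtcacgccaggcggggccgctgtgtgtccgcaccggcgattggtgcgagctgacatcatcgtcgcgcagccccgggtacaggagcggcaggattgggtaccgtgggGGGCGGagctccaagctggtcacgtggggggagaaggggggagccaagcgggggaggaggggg
Klf7 (GRCm38.p6, chr1:64121390-64121639, minus strand): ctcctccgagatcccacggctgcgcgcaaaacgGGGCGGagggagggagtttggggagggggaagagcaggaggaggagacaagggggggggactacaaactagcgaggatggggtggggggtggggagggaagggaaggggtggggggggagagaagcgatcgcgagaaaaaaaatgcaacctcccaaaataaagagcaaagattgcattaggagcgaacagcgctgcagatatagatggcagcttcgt
Klf2 (GRCm38.p6, chr8:72318812-72319061, plus strand): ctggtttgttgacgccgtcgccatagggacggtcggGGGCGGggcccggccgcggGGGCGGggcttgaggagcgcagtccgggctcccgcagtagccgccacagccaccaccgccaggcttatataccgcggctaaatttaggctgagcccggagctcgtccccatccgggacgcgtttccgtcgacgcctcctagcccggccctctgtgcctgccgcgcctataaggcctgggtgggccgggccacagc
Klf4 (GRCm38.p6, chr4:55532476-55532725, minus strand): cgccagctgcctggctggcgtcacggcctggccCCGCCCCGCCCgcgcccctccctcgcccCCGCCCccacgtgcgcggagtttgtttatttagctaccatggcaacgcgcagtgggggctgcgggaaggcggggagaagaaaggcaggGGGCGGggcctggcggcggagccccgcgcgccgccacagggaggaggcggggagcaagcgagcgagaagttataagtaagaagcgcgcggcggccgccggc
RefSeq promoters were matched for 7 of the 9 members, all but Klf5 and Klf10. The 7 windows held 59.2% to 78.4% G and C, against a median of 52.4% over 32851 RefSeq promoters of the same length. GGGCGG was present in 6 of the 7, with 1 match in Klf6, 1 in Klf7, 2 in Klf2, 3 in Klf13, 4 in Klf4 and 6 in Klf3, and in 32.7% of all promoters. CACCC was present in 5 of the 7 and in 52.0% of all promoters. These 2 motifs were added after the windows had been seen. The TCF/LEF sequences CTTTGA and CTTTGT, the TEAD sequence GGAATG, the STAT sequence TTCCNGGAA, the longer Krueppel-like sequence CCACACCC and the SRF site known as the CArG box, searched on both strands, were not found in any of the 7 windows. They were present in 13.8%, 16.5%, 12.6%, 0.913%, 3.20% and 1.47% of all promoters. CCACACCC contains CACCC, so those 2 searches overlap.

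The knockdown was visible for both targets. With YAP/TAZ siRNA the level of Yap1 was 41.4% and that of Wwtr1, the gene of TAZ, 48.7% of PD-only control, with limma adjusted p of 2.61e-18 and 5.32e-17. The 8 ES cell markers had a mean log2 level of 12.14 to 12.31 over all arrays, a mean in which opposite moves offset each other. In 2i compared with PD-only control 5 were called higher and 3 lower, among them Nanog by 0.51 and Lin28a by -1.28. With YAP/TAZ siRNA compared with PD-only control 3 were higher, 3 lower and 2 not called. No pair of arrays held identical values, and the lowest correlation between arrays of 1 arm, over genes, was 0.998. The difference between 3′ and 5′ probe sets of Actb, a sign of RNA length, was 0.717 ± 0.035 (SD, n = 7) in PD-only control, 0.966 ± 0.10 (SD, n = 7) in the 2i arm and 0.975 ± 0.062 (SD, n = 8) under YAP/TAZ siRNA. PD-only control differed in it from 2i control and from YAP/TAZ siRNA, each with an adjusted p of 0.00117 by an exact two-sided permutation test. The Actb values of PD-only control, 0.66 to 0.75, did not overlap those of the other arms. The same difference for Gapdh was -0.074 in PD-only control, -0.011 in 2i and -0.016 under YAP/TAZ siRNA. By the same test PD-only control differed in Gapdh from 2i and YAP/TAZ siRNA, with adjusted p of 0.00117 and 0.00233.

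Most Krueppel-like factors differed between the arms. In 2i compared with PD-only control, 6 of 9 members were higher and 2 lower, against 31.3% of all genes called higher and 26.7% lower, or 58.0% together. With YAP/TAZ siRNA compared with PD-only control, 1 member was higher and 7 were lower, against 35.5% and 26.3% of all genes, or 61.8% together. With YAP/TAZ siRNA compared with 2i, 9 of 9 were lower, against 22.8% of all genes lower, 25.5% higher and 48.3% together. A gene was called at a limma p, adjusted over all genes by the Benjamini-Hochberg method, under 0.05. Since 48.3% to 61.8% of genes passed, the count of members called is read against a high background, and the direction and size of each difference are given for each gene in turn. The median difference over the 9 members was 0.15, -0.39 and -0.44 on the log2 scale in the 3 comparisons, against 0.04, 0.06 and 0.02 over all genes. Over all genes 5702 were higher and 4857 lower with CHIR, and 6463 and 4787 with YAP/TAZ siRNA. When each array was centred on its median, which shifted by -0.12 and -0.14 between these arms, 10462 were higher and 3458 lower, and 11710 and 3346. Centring raised every difference in these comparisons, although the median difference over all genes was already 0.04 and 0.06. The members then stood at 7 higher and 2 lower with CHIR, 2 higher and 7 lower with YAP/TAZ siRNA, and 9 lower between YAP/TAZ siRNA and 2i. With the mean of all probe sets of a gene, the count with CHIR was 3 higher and 3 lower. Without probe sets whose names end in _a_at, _s_at or _x_at the count was 5 and 3. It was 4 higher and 2 lower with the Actb 3′ to 5′ difference as a covariate and likewise with the second siRNA of each kind alone. In each of these 4 settings 1 member was higher and 6 or 7 lower with YAP/TAZ siRNA, and against 2i all 9 were lower. The comparison of YAP/TAZ siRNA with 2i differs in both siRNA and medium. The first and second comparison share the PD-only control arrays, and the other combinations share an arm as well, so the values are set side by side and not as independent results. In bulk RNA, fewer cells of a type and less RNA per cell cannot be told apart.

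**Figure D1:**
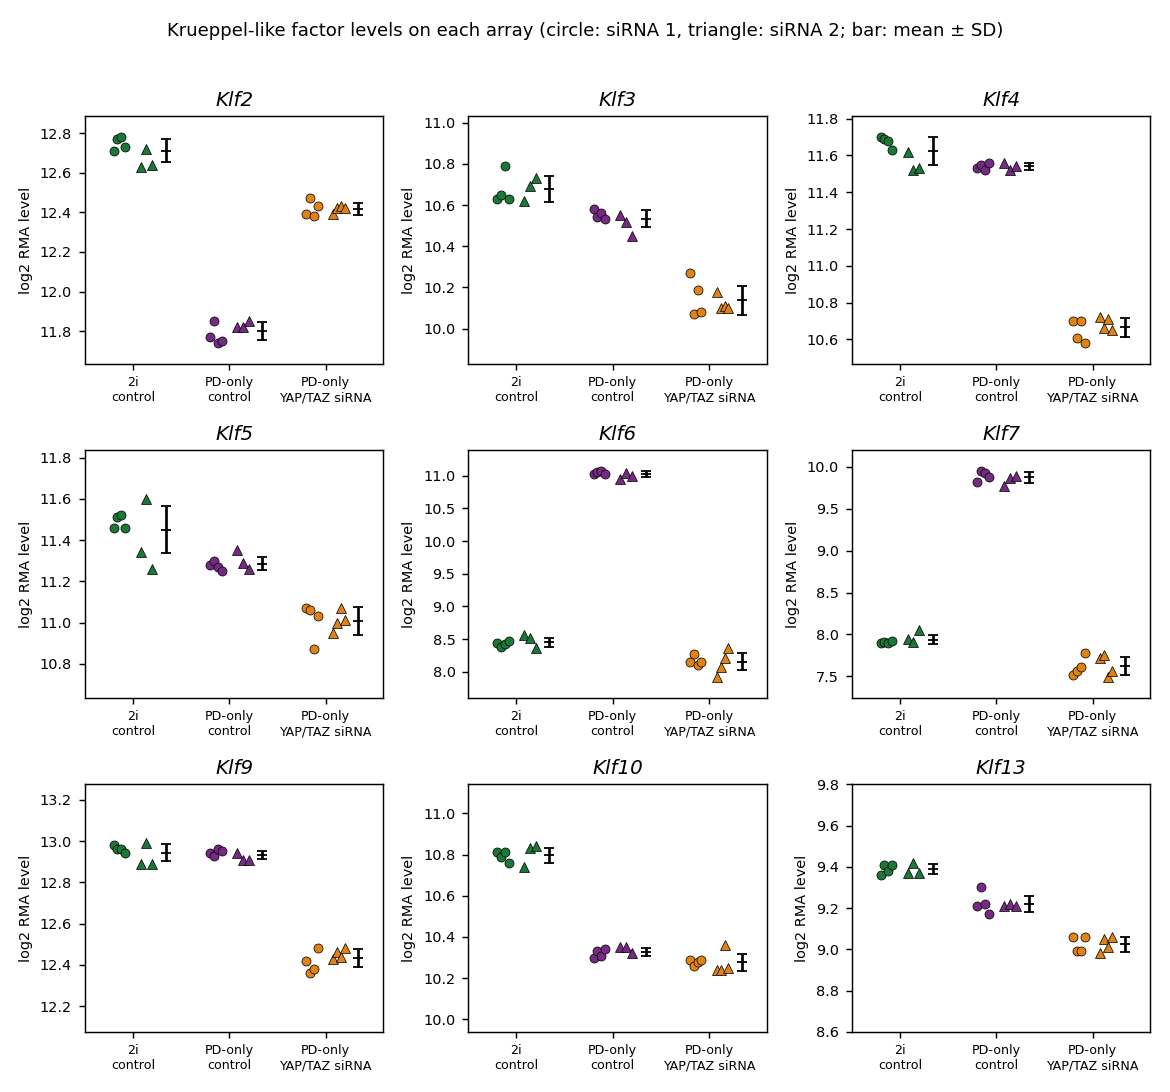
Log2 level of each of the 9 genes on each of the 22 arrays, 1 panel per gene with its own vertical axis, by arm (7 arrays of 2i control, 7 of PD-only control, 8 of PD-only with YAP/TAZ siRNA), with points for arrays and bars for arm means. Klf6 and Klf7 stand high in PD-only control alone, and Klf2 stands lowest there. All members but Klf2 have their lowest arm mean with YAP/TAZ siRNA, where Klf10 overlaps PD-only control.

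Klf2, a naive pluripotency factor, was the 1 member that was higher both with CHIR and with YAP/TAZ siRNA. Its lowest, median and highest log2 levels were 12.63, 12.72 and 12.78 in 2i control, 11.74, 11.82 and 11.85 in PD-only control, and 12.38, 12.42 and 12.47 with YAP/TAZ siRNA. The 3 arms did not overlap, and the YAP/TAZ siRNA arrays lay between the others. With CHIR, Klf2 stood 1.87-fold above PD-only control, a log2 difference of 0.90 ± 0.025 (SE, limma adjusted p 2.11e-17). It was 1.53-fold higher with YAP/TAZ siRNA than in PD-only control, by 0.61 ± 0.024 (adjusted p 6.32e-15). It remained lower than in 2i, by -0.29 ± 0.024 (adjusted p 2.57e-09), at 81.8% of the 2i level. A single probe set measures Klf2, so no second one bears on these values.

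Klf4, the naive factor downstream of LIF and STAT3, moved the other way with YAP/TAZ siRNA. Its lowest, median and highest levels were 11.52, 11.63 and 11.70 in 2i control, 11.52, 11.54 and 11.56 in PD-only control, and 10.58, 10.68 and 10.72 with YAP/TAZ siRNA. All 8 YAP/TAZ siRNA arrays lay below all 14 control arrays, while the 2 control arms overlapped. Klf4 fell to 54.6% of PD-only control, by -0.87 ± 0.025 (limma adjusted p 3.4e-17), and lay at 51.8% of the 2i level, by -0.95 ± 0.025 (adjusted p 6.1e-17). With CHIR it was higher by 0.08 ± 0.026 (adjusted p 0.0174), with a 95% interval of 0.021 to 0.13. That call rests on few arrays: without replicate A of siControl#2 in 2i the difference was 0.06 with an adjusted p of 0.0602, and with siControl#2 alone it was 0.02 with an adjusted p of 0.796. It was also lost with the Actb 3′ to 5′ difference as a covariate, at 0.07 and an adjusted p of 0.294, and was 0.20 on median-centred arrays and 0.14 with siControl#1 alone. Both probe sets of Klf4 were called higher with CHIR and lower with YAP/TAZ siRNA.

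Klf5, which acts in ES cell self-renewal, was lowest with YAP/TAZ siRNA. The lowest, median and highest Klf5 levels were 11.26, 11.46 and 11.60 in 2i control, 11.25, 11.28 and 11.35 in PD-only control, and 10.87, 11.02 and 11.07 with YAP/TAZ siRNA. The 2 control arms overlapped, and the YAP/TAZ siRNA arrays lay below both. Klf5 fell to 82.4% of PD-only control with YAP/TAZ siRNA, by -0.28 ± 0.042 (limma adjusted p 6.46e-06), and lay at 73.9% of 2i, by -0.44 ± 0.042 (adjusted p 2.17e-08). It was higher with CHIR by 0.16 ± 0.043 (adjusted p 0.00417). The direction with CHIR depends on the probe set, since a second one, at a mean level of 7.805, was lower by -0.13 (adjusted p 0.00974). The remaining one, dim at 3.85, was not called. The unweighted mean of these and the main probe set, which stood at 11.24, was 0.01 (adjusted p 0.756). With the Actb covariate the YAP/TAZ siRNA difference was -0.15 with an adjusted p of 0.115, and with siControl#2 alone the CHIR difference was 0.10 with an adjusted p of 0.345. On median-centred arrays the differences were 0.28 with CHIR and -0.14 with YAP/TAZ siRNA.

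Klf6, an early response factor of many cell types, gave the largest differences of the family. Its lowest, median and highest levels were 8.37, 8.44 and 8.56 in 2i control, 10.95, 11.03 and 11.07 in PD-only control, and 7.92, 8.15 and 8.36 with YAP/TAZ siRNA. All 7 PD-only control arrays lay far above the other 15, and the 2i and YAP/TAZ siRNA arrays were parted by 0.01. Klf6 was 5.91-fold lower in 2i than in PD-only control, by -2.56 ± 0.051 (limma adjusted p 9.55e-20), and ranked 173 of 18193 genes by absolute difference. It was 7.27-fold lower with YAP/TAZ siRNA, by -2.86 ± 0.049 (adjusted p 8.55e-21), and ranked 135. Compared with 2i it was lower by -0.30 ± 0.049 (adjusted p 3.09e-05).

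Klf7, a factor known from neuronal development, showed the same order of arms. The lowest, median and highest Klf7 levels were 7.90, 7.91 and 8.05 in 2i control, 9.77, 9.88 and 9.95 in PD-only control, and 7.49, 7.59 and 7.78 with YAP/TAZ siRNA. No arms overlapped. Klf7 was 3.81-fold lower in 2i than in PD-only control, by -1.93 ± 0.046 (limma adjusted p 1.46e-18), and 4.75-fold lower with YAP/TAZ siRNA, by -2.25 ± 0.044 (adjusted p 6.1e-20). Compared with 2i it was lower by -0.32 ± 0.044 (adjusted p 3.64e-06). Klf6 and Klf7 were the 2 members that differed by at least 1 on the log2 scale in the first and second comparison, where 5.81% and 6.37% of all genes were called at that size and 4.12% and 4.47% were lower by that much. No member differed by that much between YAP/TAZ siRNA and 2i, where 1.51% of all genes did and 0.879% were lower by it.

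Many, but not all, markers of other cell types were also higher in PD-only control, the arm in which Klf6 and Klf7 were high. The mean log2 level of 10 fibroblast markers was 6.55 to 6.71 in PD-only control, against 4.84 to 4.99 for 2i and 4.95 to 5.12 under YAP/TAZ siRNA. That of 11 trophoblast markers was 7.66 to 7.75, against 5.90 to 5.95 and 6.04 to 6.18. That of 14 primitive endoderm markers was 7.10 to 7.20, against 5.89 to 5.98 and 5.85 to 5.94. Even in PD-only control, 9 of these 14 had an arm mean below the median of all genes, 6.64. Gata6 stood at 5.72 there and Sox17 at 5.69, while Col4a1 stood at 10.67 and Sparc at 11.99. The same held for 5 fibroblast and 5 trophoblast markers. With CHIR, 9 of 10 fibroblast, 5 of 11 trophoblast and 10 of 14 primitive endoderm markers were called lower. With YAP/TAZ siRNA, 7, 5 and 9 were. Among them Krt8, a keratin of trophoblast and other epithelia, was lower by -6.67 with CHIR and by -5.80 with YAP/TAZ siRNA, and the collagen gene Col1a2 by -4.56 and -4.50. The other calls went the opposite way: Cdx2 of trophoblast was higher than PD-only control by 0.55 with CHIR and by 1.07 with YAP/TAZ siRNA, Plet1 was higher by 0.13 with CHIR, Tfap2c was higher by 0.71 with YAP/TAZ siRNA, and Lama1 of primitive endoderm was higher by 0.59 and 0.43. The median differences of the trophoblast list were -0.05 and -0.08, so its mean rests on few genes. Lum of fibroblasts, Elf5, Tpbpa, Hand1 and Esx1 of trophoblast, and Sox7, Sox17 and Gata4 of primitive endoderm were not called in either comparison. The values have no true zero and no detection call, and the part of other cells in the Klf6 and Klf7 differences was not tested. With the Actb covariate Klf6 was lower by -2.35 with CHIR and by -2.64 with YAP/TAZ siRNA. For Klf7 these values were -2.03 and -2.35. The slope of this covariate comes only from the spread within groups. Since the Actb values of PD-only control did not overlap those of the other arms, RNA length and arm cannot be told apart.

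**Figure D2:**
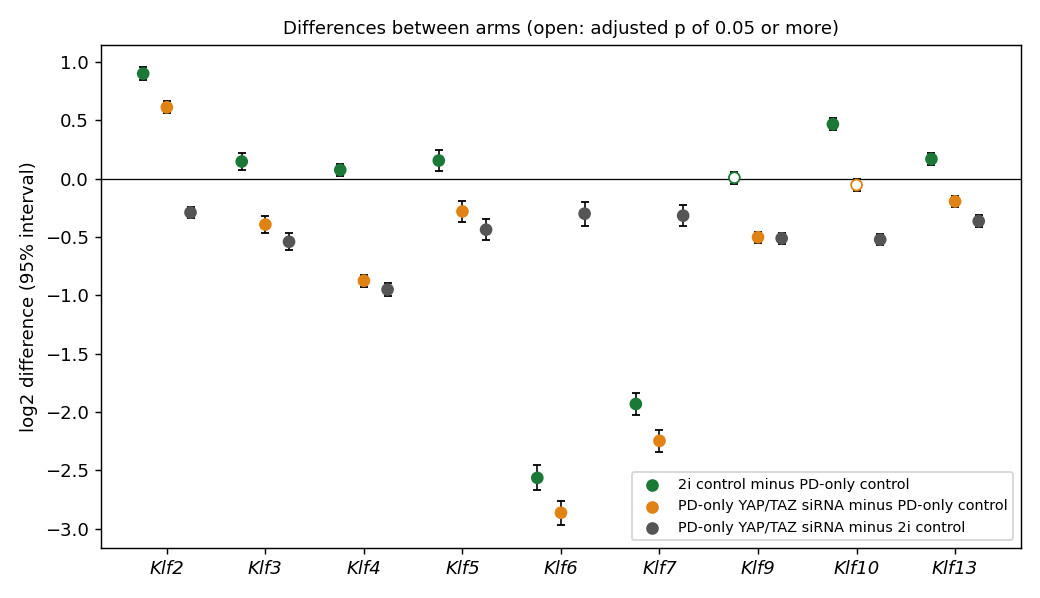
Log2 difference with its 95% interval for each gene in the 3 comparisons of arms, where filled points have an adjusted p under 0.05 and open points do not. Klf6 and Klf7 lie near -2 to -3 in both comparisons with PD-only control, and all 9 genes lie below 0 for YAP/TAZ siRNA minus 2i control.

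Klf3, the CtBP-recruiting repressor, was lowest with YAP/TAZ siRNA. Its lowest, median and highest levels were 10.62, 10.65 and 10.79 in 2i control, 10.45, 10.54 and 10.58 in PD-only control, and 10.07, 10.11 and 10.27 with YAP/TAZ siRNA. The 3 arms did not overlap. Klf3 fell to 76.2% of PD-only control with YAP/TAZ siRNA, by -0.39 ± 0.034 (limma adjusted p 2.48e-09), and lay at 68.8% of 2i, by -0.54 ± 0.034 (adjusted p 3.75e-11). The CHIR difference was smaller, 0.15 ± 0.035 (adjusted p 0.00115). It was 0.07 with the Actb covariate (adjusted p 0.42) and 0.12 with siControl#1 alone (adjusted p 0.0654), and its 7 probe sets split into 2 higher, 2 lower and 3 not called, with a mean over them of 0.01 (adjusted p 0.797). The mean levels of these probe sets ran from 10.435 down to 5.24, and that mean weights them alike. On median-centred arrays the differences were 0.27 with CHIR and -0.26 with YAP/TAZ siRNA.

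Klf9, a Sin3A-recruiting factor induced by glucocorticoid and thyroid hormone in other tissues, did not pass the test with CHIR and fell with YAP/TAZ siRNA. The lowest, median and highest Klf9 levels were 12.89, 12.96 and 12.99 in 2i control, 12.91, 12.94 and 12.96 in PD-only control, and 12.36, 12.44 and 12.48 with YAP/TAZ siRNA. The control arms overlapped, and the YAP/TAZ siRNA arrays lay below both. Klf9 fell to 70.6% of PD-only control, by -0.50 ± 0.023 (limma adjusted p 7.89e-14), and was lower than in 2i by -0.51 ± 0.023 (adjusted p 2.02e-13). The CHIR difference was 0.01 ± 0.024, with a 95% interval of -0.041 to 0.059 (adjusted p 0.764). Of its 7 probe sets, 6 fell with YAP/TAZ siRNA, while with CHIR 3 were lower and 4 were not called. The CHIR difference was 0.13 (adjusted p 7.41e-05) with each array centred on its median and -0.11 (adjusted p 0.000216) for the mean of the 7 probe sets.

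Klf10, a factor induced by TGF-beta, was called with CHIR and not with YAP/TAZ siRNA. Its lowest, median and highest levels were 10.74, 10.81 and 10.84 in 2i control, 10.30, 10.33 and 10.35 in PD-only control, and 10.24, 10.27 and 10.36 with YAP/TAZ siRNA. The 2i arrays lay above all others, and the 2 PD-only arms overlapped. Klf10 was 1.38-fold higher in 2i than in PD-only control, by 0.47 ± 0.024 (limma adjusted p 7.92e-13), and lower with YAP/TAZ siRNA than in 2i by -0.52 ± 0.023 (adjusted p 2.07e-13). With YAP/TAZ siRNA the difference from PD-only control was -0.05 ± 0.023 (adjusted p 0.0536), with a 95% interval of -0.10 to -0.0046. That difference came under 0.05 without replicate C of siYAP/TAZ#2, at -0.07 with an adjusted p of 0.0105, and without replicate A or replicate C of siControl#2 in 2i, with adjusted p of 0.0396 and 0.0491. In 5 further settings its adjusted p was 0.0256 to 0.0431, at -0.05 to -0.06. It turned to 0.08 (adjusted p 0.00425) when each array was centred on its median, which raised every difference in this comparison.

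Klf13, a Sin3A-recruiting factor known from T cells and heart, had small differences in the order of 2i, PD-only control and YAP/TAZ siRNA. The lowest, median and highest Klf13 levels were 9.36, 9.38 and 9.42 in 2i control, 9.17, 9.21 and 9.30 in PD-only control, and 8.98, 9.03 and 9.06 with YAP/TAZ siRNA. No arms overlapped. Klf13 was higher with CHIR by 0.17 ± 0.025 (limma adjusted p 5.25e-06), lower with YAP/TAZ siRNA by -0.19 ± 0.024 (adjusted p 4.51e-07), and lower than in 2i by -0.36 ± 0.024 (adjusted p 7.18e-11). With YAP/TAZ siRNA a second probe set was lower than PD-only control by -0.18 (limma adjusted p 0.00157). The dimmest, at a mean level of 4.87, was higher by 0.21 (adjusted p 0.0453). Neither was called with CHIR. Taking the mean of the 3 probe sets of Klf13, the first and second difference were 0.06 and -0.06, with adjusted p of 0.19 and 0.218. The difference from 2i was then -0.12. With each array centred on its median the first and second difference were 0.29 and -0.06 (adjusted p 0.0199).

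Counted over members, the arms did not overlap for 6 genes with CHIR, 8 with YAP/TAZ siRNA and 9 between YAP/TAZ siRNA and 2i, against 37.6%, 40.4% and 28.3% of all genes. With CHIR 4 lay wholly above and 2 wholly below PD-only control, against 18.7% and 19.0% of all genes. With YAP/TAZ siRNA 1 lay above and 7 below, against 21.1% and 19.3%. Between YAP/TAZ siRNA and 2i all 9 lay wholly below 2i, against 13.3% of all genes.

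The probe sets beside the main ones were more often lower than higher in each comparison. They interrogate the same RNA and are not replicates. Of these 24, 2 were higher, 13 lower and 9 not called with CHIR, 1 higher, 20 lower and 3 not called with YAP/TAZ siRNA, and 0 higher, 17 lower and 7 not called between YAP/TAZ siRNA and 2i in the limma fit. Of all 33 probe sets, the 9 main ones included, 27 were lower, 2 higher and 4 not called with YAP/TAZ siRNA, against 23.8% lower and 32.8% higher among all single-symbol probe sets. Between YAP/TAZ siRNA and 2i, 26 were lower, 0 higher and 7 not called in the limma fit, against 21.8% lower and 22.5% higher. With CHIR, 8 were higher, 15 lower and 10 not called, against 30.6% higher and 23.9% lower. All 5 probe sets of Klf6 were lower, by -1.48 to -2.76 with CHIR and by -1.69 to -3.22 with YAP/TAZ siRNA. All 4 of Klf7 were lower, by -1.93 to -2.53 and by -2.25 to -2.96.

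**Figure D3:**
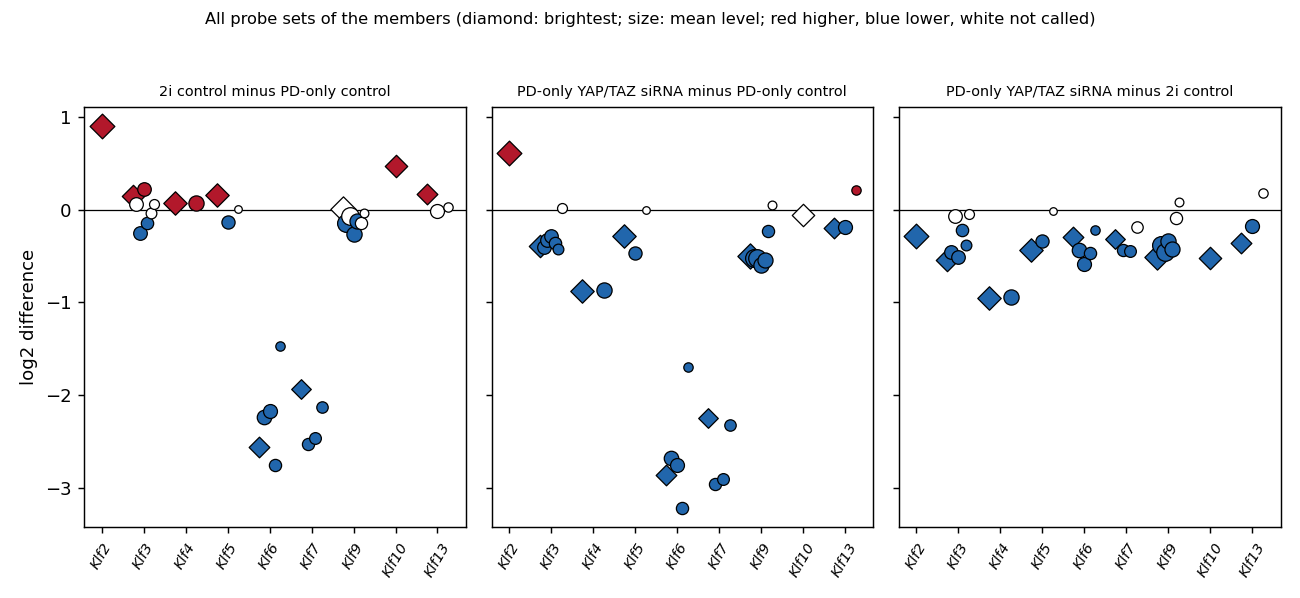
Log2 difference of each of the 33 probe sets of the 9 genes in the comparisons with PD-only control and between YAP/TAZ siRNA and 2i control, with a diamond for the brightest probe set of a gene, point size for the mean level, and red, blue and white for higher, lower and not called. All probe sets of Klf6 and Klf7 lie well below 0 in both comparisons with PD-only control, while those of Klf3, Klf5 and Klf9 lie on both sides of 0 with CHIR.

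The siRNAs of 1 kind gave close values for the family. In the limma fit 0 of the 9 members and 0 of 18193 genes were called between siControl#1 and siControl#2 in 2i, between the same 2 in PD-only medium, between siYAP/TAZ#1 and siYAP/TAZ#2, or for the change of the control siRNA difference between media. At an unadjusted p under 0.05 these comparisons gave 1450, 769, 648 and 949 genes. Among the members these were Klf2 and Klf4 in 2i, at -0.08 and -0.12, and Klf2 and Klf4 for the change between media, at -0.14 and -0.12. The largest difference of a member between the 2 YAP/TAZ siRNA mixes was 0.04 in size.

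Other Krueppel-like factors moved in both directions. Of 7 measured, 2 were higher and 3 lower with CHIR, and 4 were higher and 2 lower with YAP/TAZ siRNA. Compared with 2i, 2 were higher and 3 lower with YAP/TAZ siRNA, with a median difference of -0.10. Klf1, a factor of red blood cell precursors, was higher by 0.30 with YAP/TAZ siRNA. Its mean level was dim, 4.76 against 4.47 in PD-only control, below the median of all genes at 6.64. Klf15, known from metabolic tissues, was higher by 0.95 with CHIR and by 0.67 with YAP/TAZ siRNA and lower than 2i by -0.29, the same signs as Klf2. Klf12, a CtBP-recruiting repressor, was higher by 1.24 with CHIR and by 0.30 with YAP/TAZ siRNA. With YAP/TAZ siRNA Klf12 was lower than 2i by -0.94, so it also had the signs of Klf2. Klf11, which recruits Sin3A, was lower by -0.34 and -0.44. Klf16 was lower by -0.11 with CHIR and higher by 0.36 with YAP/TAZ siRNA.

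The related Sp factors, which bind the same GC boxes, were also mixed. Of 7 measured, 4 were higher and 2 lower with CHIR, and 3 were higher and 3 lower with YAP/TAZ siRNA. Sp5, known as a direct target of Wnt and beta-catenin, was higher by 1.50 with CHIR and by 2.13 with YAP/TAZ siRNA. Sp4 was higher by 0.73 and 0.62, and Sp6 was lower by -0.53 and -0.79. Sp8 was higher by 0.60 with CHIR, and with YAP/TAZ siRNA it was lower by -0.87 than PD-only control and by -1.46 than 2i.

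**Figure D4:**
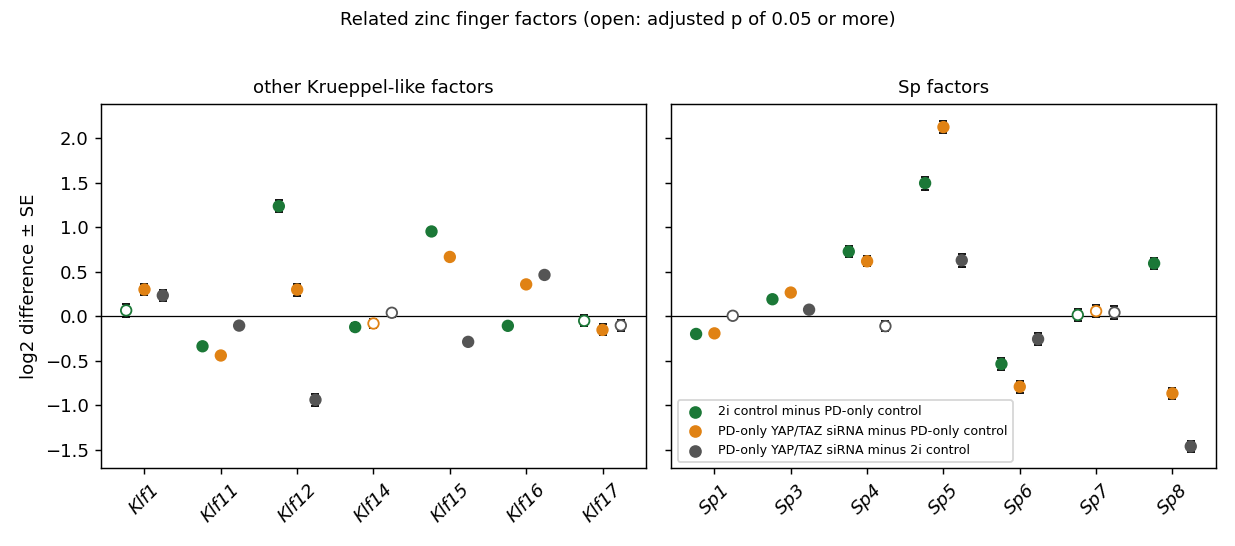
Log2 difference with its standard error for the other Krueppel-like factors and the Sp factors in the 3 comparisons, with filled points for an adjusted p under 0.05. Sp5 reaches 1.50 with CHIR and 2.13 with YAP/TAZ siRNA, Klf12 reaches 1.24 with CHIR, and the remaining genes fall on both sides of 0.

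The partners of Klf2, Klf4 and Klf5 in the naive network were mostly higher in both comparisons with PD-only control. Of 12, 10 were higher and 2 lower with CHIR, and 9 were higher and 2 lower with YAP/TAZ siRNA, with medians of 0.47 and 0.43. Compared with 2i, 2 were higher and 7 lower with YAP/TAZ siRNA, with a median of -0.17. Tfcp2l1 was higher by 1.58 with CHIR and by 1.36 with YAP/TAZ siRNA, and Nr5a2 by 1.66 and 1.60. Esrrb was higher by 1.03 with CHIR and by 0.64 with YAP/TAZ siRNA, and it was lower with YAP/TAZ siRNA than in 2i by -0.39. Prdm14 was higher by 0.89 and 0.76. Gbx2 was higher by 0.33 with CHIR and by 1.13 with YAP/TAZ siRNA, where it stood above 2i by 0.80. Its mean levels were dim, 5.31 in 2i, 4.96 in PD-only control and 6.11 with YAP/TAZ siRNA. Tbx3 and Sox2 were lower with YAP/TAZ siRNA than in 2i, by -0.31 and -0.30. Klf2 had the signs of Esrrb in all 3 comparisons, whereas Klf4 and Klf5 had the opposite sign with YAP/TAZ siRNA.

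The route from LIF and MEK to the family held a large difference. Socs3, the feedback inhibitor of LIF receptor signalling, had a mean log2 level of 8.92 in PD-only control, 4.35 with CHIR and 4.69 after YAP/TAZ siRNA. It was lower by -4.58 ± 0.080 with CHIR and by -4.24 ± 0.077 with YAP/TAZ siRNA (limma adjusted p 1.11e-20 and 1.87e-20). Stat3 was lower by -0.87 in both comparisons. Il6st, which encodes the signalling subunit gp130 of the LIF receptor, went the other way and was higher by 0.78 and 0.53. Lifr, the other subunit, was lower by -0.55 with YAP/TAZ siRNA, and Dusp6, a target of ERK signalling, was lower by -0.75 and -0.44. Of 10 genes of this route that were measured, 7 were lower and 1 higher with CHIR, and 6 were lower and 3 higher with YAP/TAZ siRNA. Klf4, known as a target of LIF and STAT3 signalling, was lower by -0.87 with YAP/TAZ siRNA, and its difference with CHIR was 0.08. Whether the genes of this route bear on Klf4 or the other members was not tested. Of 8 cofactors and ubiquitin ligases of Krueppel-like factors, 1 was higher and 2 lower with CHIR, and 1 was higher and 3 lower with YAP/TAZ siRNA. Ctbp1, the corepressor partner of Klf3, was lower by -0.17 and -0.29. Fbxo32, an F-box protein of a ubiquitin ligase, was lower by -0.95 with YAP/TAZ siRNA and was also called lower with CHIR. Its mean levels were dim, 5.95 in PD-only control and 5.01 with YAP/TAZ siRNA. Sin3a, the corepressor partner of Klf9, Klf10 and Klf13, was higher by 0.26 with YAP/TAZ siRNA.

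Genes with the pattern most like each naive member were sought among 9396 genes by the root mean square of the difference between centred means of the 6 groups, on the log2 scale. Candidates were genes without predicted names whose highest arm mean was at least the median of all genes, 6.64. For Klf2 they were Renbp, Rfng, Fnip1, Klf15 and Flcn, at 0.023 to 0.031. Flcn and Fnip1 encode folliculin and its partner, which act in the exit from naive pluripotency. For Klf4 they were Grhl2, an epithelial transcription factor, Rabggta, Gpt2, Herpud1 and Ripk4, at 0.037 to 0.059. For Klf5 they were Lysmd3, Qsox2, Terf2, Zfp799 and Khdrbs3, at 0.023 to 0.024. After the values were seen, the search was extended to Klf6, with P3h4 closest at 0.036, and to Klf7, with Perp closest at 0.022. P3h4 became a candidate only through PD-only control, at 8.96, against 6.42 in 2i and 6.14 with YAP/TAZ siRNA. Its likeness to Klf6, which is high in that arm, is thus partly set by the filter. Among the members, the most alike were Klf5 and Klf13 at 0.046 and Klf3 and Klf5 at 0.062, and the least alike were Klf2 and Klf6 at 1.64. Klf6 and Klf7 were at 0.295. The measure is not scaled to a gene's range, so members with small differences come out close whatever their shape. The arm means spanned 0.44 for Klf5 and 0.36 for Klf13, against 2.87 for Klf6 and 2.25 for Klf7. The 6 groups form 3 arms, so few independent points stand behind these values.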

How the data were processed

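Total RNA of 22 cultures was made into biotinylated cRNA by 3′ in vitro transcription and run on 1-colour Affymetrix mouse arrays, per the labels' protocols. The deposited values are log2 expression per probe set, made with RMA per the submitters' processing notes; the scale was read from the tool's name and the range of 2.09 to 14.91, and the version is not given in the sources used here. RMA makes the arrays' distributions alike, gives no detection call and compresses differences of dim probe sets. A model with 1 mean for each of 6 groups of medium and siRNA was fitted to 18193 genes with limma 3.58.1 in R 4.3.3, with siRNAs weighted equally within an arm. P-values were adjusted over all genes. Named were all 9 members, some of the called members of related lists with the largest differences (of up to 4 per list and comparison that the rule allows), and the 5 genes most like each naive member. Array quality was compared by exact permutation tests, adjusted by the Benjamini-Hochberg method. The test was tried on simulated arrays with independent noise in which few genes changed. Far more genes were called in the real comparisons, so the simulation does not bear on the number of calls. The members and lists were chosen with earlier results of these data known. Scan dates were not used here, and any batch aligned with an arm cannot be told apart from that arm. Promoters are those of RefSeq, and probe set names come from the platform annotation.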

Additional observations from a re-analysis of the deposited data

Results flagged for a closer look

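In 3 of 36 groups of 4 arrays, over the 9 genes, 1 array stood apart from the other 3 by Dixon's criterion, a rate near the 1 in 20 that chance gives. Klf3 was 10.79 in replicate C of siControl#1 in 2i, against 10.63 to 10.65 in the others. It was 10.18 in replicate A of siYAP/TAZ#2, against 10.10 to 10.11. Klf10 was 10.36 in replicate C of siYAP/TAZ#2, against 10.24 to 10.25.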

How the results depend on the processing

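Leaving out 1 array at a time, 590 of 594 member differences kept direction and call, and the exceptions are those given for Klf4 and Klf10. Over the other settings 359 of 378 did. The calls of Klf2, Klf6 and Klf7, and all 9 calls of YAP/TAZ siRNA minus 2i control, were kept in every setting without a minimum size. The direction was reversed for Klf9 with CHIR for the mean of probe sets (-0.11) and for Klf10 with YAP/TAZ siRNA on median-centred arrays (0.083). It was also reversed for Klf5 with CHIR (-0.13) without probe sets whose names end in _a_at, _s_at or _x_at. For Klf5 that setting replaced the main probe set, at a mean level of 11.24, by a dimmer one at 7.805. Requiring an absolute log2 difference of at least 1 left 2, 2 and 0 members and 1057, 1158 and 275 genes. Replicate letters gave no clear pairing of the arrays. Of 51 same-letter pairs 2 had a correlation of deviations above 0.1, and 9 of 22 arrays correlated best with an array of their own letter. The median correlation was 0.0019 for same-letter pairs and -0.0020 for other pairs. No chance level was computed for the 9 arrays, so weak pairing cannot be told from none. With the replicate block 8, 8 and 9 members and 10542, 11261 and 8714 genes were called. The number of arrays limits the precision.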
